A study of Mus musculus with 2 samples.

Results

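The loci described here are the tRNA genes of the mouse nuclear genome and the CHD2 peaks beside them. The RefSeq annotation of GRCm38 lists 430 tRNA genes in all, of which 391 lie on numbered chromosomes, and genes less than 1 kb apart were joined. This gave 287 tRNA loci, of which 220 held a single gene and 67 held several. A locus held at most 5 genes and spanned at most 2581 bp, and the genes were 70 to 107 bp long with a median of 73 bp. All 20 amino acid isotypes were present. By the annotation, 32 loci lay within 1 kb of the outer 5′ end of a protein-coding gene and 255 lay farther away.

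CHD2 is a chromodomain helicase that uses ATP to remodel nucleosomes. Its binding was measured by chromatin immunoprecipitation and sequencing with an antibody to CHD2. The cells were ES-E14, a line of pluripotent stem cells from a male embryo of mouse strain 129/Ola. There was 1 group of 2 biological replicates, both derived from the same labelled biosample, with no treatment and no second genotype, and the control was not analysed here. The peak lists hold no expression values, so the cell type could not be checked against RNA levels. Of the 5 pluripotency genes examined, Sox2 alone had an optimal summit within 500 bp of its 5′ end, with a signal of 25.7, and this describes binding only.

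Transfer RNA genes are transcribed by RNA polymerase III from promoter elements that lie inside the gene. The factor TFIIIC contacts an A box and a B box there and places TFIIIB just upstream, which in turn recruits the polymerase. A short run of T at the end of the gene stops transcription. Many tRNA genes occur as near-identical copies in clusters, and a cell may transcribe only some of them.

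The sequences of 8 tRNA genes are printed below, with A box and B box cores marked where they were found. The T run was sought downstream of the gene and is not printed. The first 6 are 1 gene from each of the 6 loci with the highest optimal signals among those with a sequence, and the last 2 belong to groups of loci without a summit. They were read from the NCBIM37 (mm9) genome on the strand of the gene, 5′ to 3′. Capitals mark the A box core (TGGCNNAG or TAGCNNAG) and the B box core (GTTCGANNC) where an exact match was found on that strand, and a gene without capitals held neither spelling. The genes are n-TRtcg1 at chr13:23618325-23618397 on the minus strand, n-TMcat11 at chr3:90279782-90279853 on the minus strand, n-TAagc9 at chr19:3576263-3576335 on the plus strand and n-THgtg6 at chr3:96213992-96214063 on the plus strand. The others are n-TQttg6 at chr11:95720486-95720557 on the minus strand, n-TYgta9 at chr5:31190456-31190544 on the plus strand, n-TGtcc5 at chr1:173002465-173002536 on the minus strand and n-TCgca37 at chr6:48083936-48084007 on the plus strand.
n-TRtcg1: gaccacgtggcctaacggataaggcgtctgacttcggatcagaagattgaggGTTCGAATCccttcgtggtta
n-TMcat11: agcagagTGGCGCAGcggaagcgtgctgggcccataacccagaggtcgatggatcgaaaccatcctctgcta
n-TAagc9: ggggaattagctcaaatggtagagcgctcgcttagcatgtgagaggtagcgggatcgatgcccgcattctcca
n-THgtg6: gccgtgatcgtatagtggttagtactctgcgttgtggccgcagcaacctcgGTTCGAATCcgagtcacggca
n-TQttg6: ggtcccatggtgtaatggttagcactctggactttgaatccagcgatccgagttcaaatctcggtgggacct
n-TYgta9: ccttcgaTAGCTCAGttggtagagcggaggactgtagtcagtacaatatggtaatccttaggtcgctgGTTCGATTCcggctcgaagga
n-TGtcc5: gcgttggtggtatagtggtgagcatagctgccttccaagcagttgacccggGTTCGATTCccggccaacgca
n-TCgca37: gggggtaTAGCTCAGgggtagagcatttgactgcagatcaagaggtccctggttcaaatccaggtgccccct

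The 4 peak lists named below were scored at each locus, and a locus counted as occupied when a peak summit lay within 500 bp of it. The optimal list holds 8282 peaks and was made from both replicates with the irreproducible discovery rate procedure. That procedure keeps peaks whose rank recurs between the lists it compares. An optimal peak was not always among the strongest of each replicate, as given below. The others are relaxed lists of 300000 peaks each, 1 pooled and 1 for each replicate, from which the 20000 peaks with the highest signal were taken. Signal here means the value per peak that the authors deposited, whose normalization is not stated, so it was set only against other peaks of one list. The read depth is unknown. The intervals given with shares are exact Clopper-Pearson 95% intervals, which cover counting error over loci only. Loci that share a sequence or a neighbourhood are not independent of each other.

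CHD2 summits lay at a minority of the tRNA loci. In the optimal list 17 of 287 loci were occupied (5.92%, interval 3.49 to 9.31%). The same window around regular positions every 1 kb along the numbered chromosomes with tRNA loci held an optimal summit at 0.337% of positions, and around protein-coding 5′ ends at 13.1%. Among the 20000 strongest pooled peaks 53 loci were occupied (18.5%, interval 14.1 to 23.4%), against 0.838% of regular positions and 21.4% of protein-coding 5′ ends. In both lists the share at tRNA loci thus lay between that of regular positions and that of protein-coding 5′ ends. The lists share their peaks, and 16 of the 17 optimal loci were also pooled loci.

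Most tRNA loci lie over 1 kb from the outer 5′ end of any protein-coding gene, and CHD2 summits were found there too. In the optimal list 6 of 32 loci near a protein-coding 5′ end were occupied (18.8%, interval 7.21 to 36.4%), and that interval includes the 13.1% of protein-coding 5′ ends. Of the 255 loci farther away, 11 were occupied (4.31%, interval 2.17 to 7.59%), against 0.22% of regular positions that are likewise over 1 kb from those ends. Among the pooled peaks 16 of the 32 near loci were occupied (50%, interval 31.9 to 68.1%), which is above the 21.4% of protein-coding 5′ ends. Of the loci farther away 37 were occupied (14.5%, interval 10.4 to 19.4%), against 0.632% of regular positions. The intervals of the near and the far loci do not overlap in the pooled list and overlap in the optimal list, and no test of the difference between them was run.

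**Figure D1:**
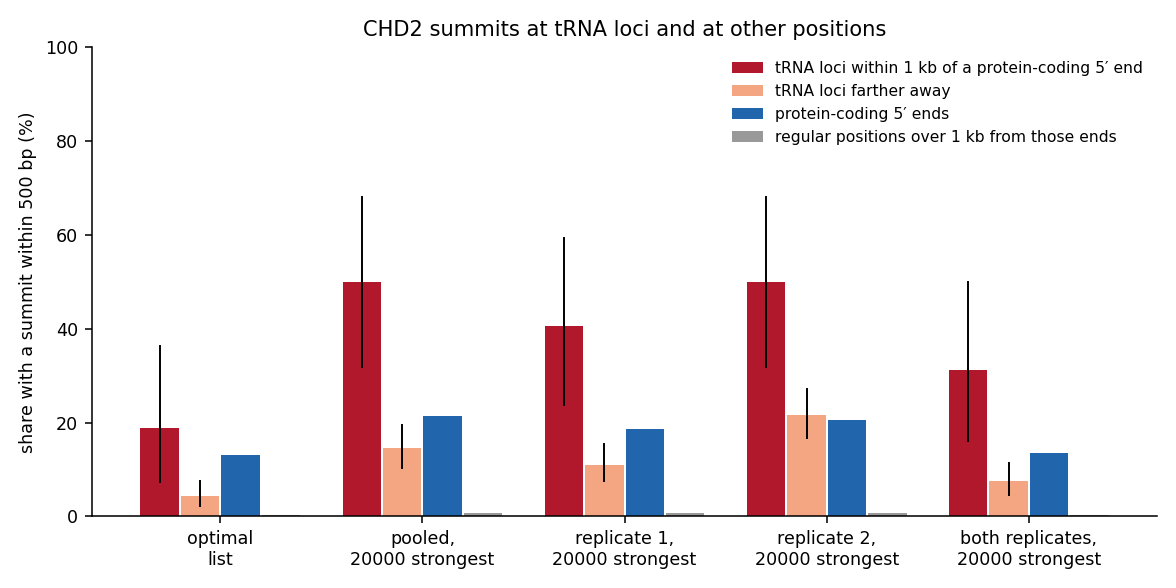
Share of loci or positions with a CHD2 summit within 500 bp, in percent, by peak list. Red bars are the 32 tRNA loci within 1 kb of a protein-coding 5′ end and orange bars the 255 farther away, with exact 95% intervals as lines; blue bars are protein-coding 5′ ends and grey bars regular positions over 1 kb from them. The grey bars stay at 0.669% or lower, and every orange bar is higher than the grey bar beside it.

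The replicates' own lists gave different shares. In replicate 1, 41 loci were occupied (14.3%), with 13 of the near loci (40.6%) and 28 of the far loci (11%). There, 0.848% of all regular positions, 0.669% of those over 1 kb from protein-coding 5′ ends and 18.7% of protein-coding 5′ ends had a summit. In replicate 2, 71 loci were occupied (24.7%), with 16 near loci (50%) and 55 far loci (21.6%). In that list the shares were 0.839% of all regular positions, 0.639% of those far from protein-coding 5′ ends and 20.5% of protein-coding 5′ ends. The far tRNA loci thus counted 55 occupied in replicate 2 and 28 in replicate 1, while the regular positions differed little between the lists. Cut to as many peaks as the optimal list holds, the list of replicate 2 held 33 loci (11.5%), 25 of them far, and that of replicate 1 held 18 (6.27%), 12 of them far. The share from replicate 2 alone was thus over 1.5 times that of the optimal list.

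Occupancy in both replicates' own lists shows whether a locus recurs, apart from the procedure behind the optimal and conservative lists. A locus counted when each list had a summit within 500 bp, so the summits need not belong to the same peak. At n-TVcac10 the strongest summit was 470 bp downstream of the gene in replicate 1 and 171 bp upstream in replicate 2. In both lists together 29 loci were occupied (10.1%, interval 6.87 to 14.2%), against 0.339% of regular positions and 13.6% of protein-coding 5′ ends. Of these, 10 were near (31.2%) and 19 were far (7.45%, interval 4.55 to 11.4%), against 0.22% of regular positions far from protein-coding 5′ ends. The shared loci made up 70.7% of the loci of replicate 1 and 40.8% of those of replicate 2. The list of replicate 2 alone held 42 loci, of which 19 lay on chromosome 13 and 26 had a weaker peak somewhere in the full list of replicate 1. The list of replicate 1 alone held 12 loci, of which 2 lay on chromosome 13 and 10 had a weaker peak in the full list of replicate 2. All 4 lists shared 12 loci, 5 near and 7 far, and 88 of the 287 loci (30.7%) were in at least 1 of the 4.

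**Figure D2:**
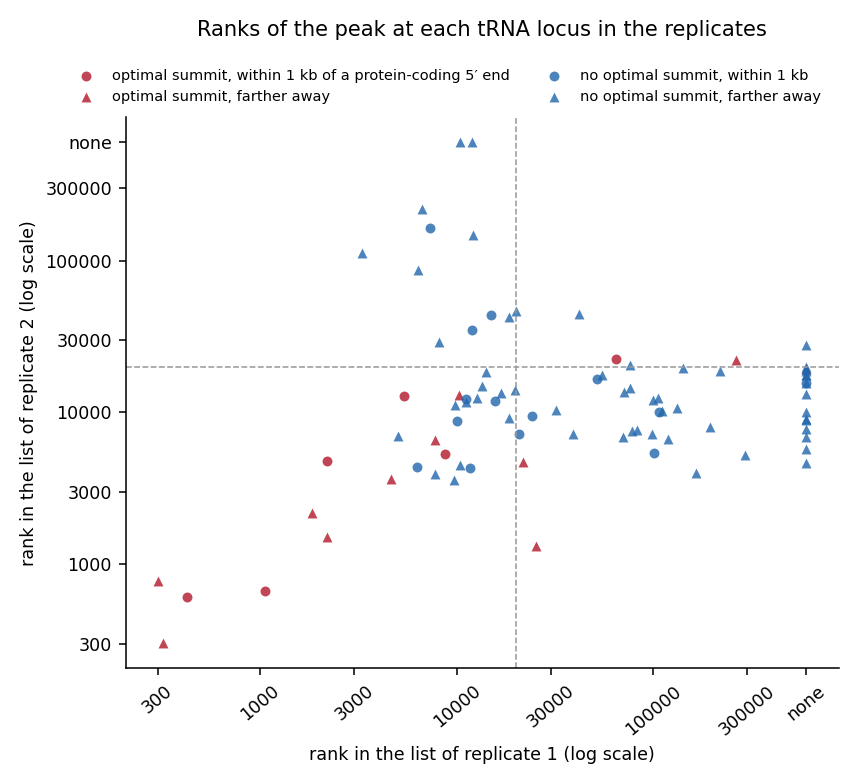
Rank of the strongest peak within 500 bp of each of the 88 tRNA loci found in at least 1 of the 4 lists, in the full list of replicate 1 (horizontal) and of replicate 2 (vertical), both on a log scale with rank 1 the strongest and "none" for no peak. Red marks loci with an optimal summit and blue those without, circles lie within 1 kb of a protein-coding 5′ end and triangles farther away, and dashed lines stand at rank 20000. The strongest loci lie low on both axes, and 42 points lie in the 20000 strongest peaks of replicate 2 alone, against 12 in those of replicate 1 alone.

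The signal at occupied tRNA loci was like that of the list it came from. The median optimal signal at the 17 loci was 29.8, with a range of 8.00 to 184, and the median of all optimal peaks was 29.6. In the pooled list the medians were 18 at tRNA loci and 18.3 over the 20000 peaks. The medians were 10.4 at the loci of replicate 1 against 10.3 in its list, and 11.1 at those of replicate 2 against 10.6. The 17 loci ranked from 309 to 8062 in the optimal list.

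The strongest summit lay beside n-TRtcg1, an arginine tRNA gene with anticodon TCG on chromosome 13 at 23526456 to 23526528 of GRCm38. Its signal was 184 in the optimal list (rank 309). It was 94.7 in replicate 1 (rank 319) and 89.0 in replicate 2 (rank 301), so that its rank was nearly the same in both. The gene lies inside the long noncoding RNA gene Gm11335. The summit was 337 bp downstream of the tRNA gene and 255 bp from an end of Gm11335. The nearest protein-coding 5′ end was that of H4c8, a histone H4 gene, 4516 bp from the locus.

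The next summit lay beside the glycine tRNA gene n-TGgcc3 on chromosome 1 at 74816747 to 74816817, farther from other genes. Its optimal signal was 151 (rank 421), with 98.6 in replicate 1 (rank 302) and 51.8 in replicate 2 (rank 771). The summit was 171 bp from the tRNA gene. The nearest other gene end, that of the noncoding gene Gm32275, was 3539 bp from the summit. The nearest protein-coding 5′ end was that of Wnt10a, which encodes a secreted signalling protein, 24728 bp from the locus.

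Both loci that followed stood beside protein-coding genes. The methionine tRNA gene n-TMcat11 lies on chromosome 3 at 90475860 to 90475931, 270 bp from the 5′ end of Ilf2, which encodes a double-stranded RNA binding factor. Its signal was 136 in the optimal list (rank 491), 78.0 in replicate 1 (rank 425) and 60 in replicate 2 (rank 608). The summit was 181 bp upstream of n-TMcat11 and 89 bp from the end of Ilf2, so it was closer to the protein-coding gene. The alanine tRNA gene n-TAagc9, on chromosome 19 at 3576263 to 3576335, lies 230 bp from the 5′ end of Ppp6r3, a regulatory subunit gene of protein phosphatase 6. Its signal was 96.0 in the optimal list (rank 840), 41.2 in replicate 1 (rank 1055) and 56.7 in replicate 2 (rank 665). Its summit was 421 bp upstream of n-TAagc9 and 191 bp from the end of Ppp6r3.

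The histidine gene n-THgtg6 had a summit close to the tRNA gene itself. It lies on chromosome 3 at 96410069 to 96410140, 44221 bp from the nearest protein-coding 5′ end, and its summit was 56 bp downstream. The signal was 59.6 in the optimal list (rank 1564), 24.3 in replicate 1 (rank 2180) and 32.0 in replicate 2 (rank 1515). The nearest other gene was the pseudogene Pafah1b1-ps1, 605 bp from the locus. The glutamine gene n-TQttg6 on chromosome 11, at 95859172 to 95859243, had an optimal signal of 56.4 (rank 1679), with 27.2 in replicate 1 (rank 1833) and 24.6 in replicate 2 (rank 2164). It lies inside the noncoding gene 4833417C18Rik, and its summit was 364 bp from the tRNA gene and 9 bp from an end of that gene.

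The tyrosine and alanine genes n-TYgta9 and n-TAagc15 form 1 locus on chromosome 5 at 30888083 to 30888587. It lies 52 bp from the 5′ end of Agbl5, which encodes a tubulin deglutamylase, and overlaps the noncoding gene Gm35795. The signal was 50.3 in the optimal list (rank 1939), 24.3 in replicate 1 (rank 2178) and 15.3 in replicate 2 (rank 4798). The lysine genes n-TKctt26 and n-TKctt25 on chromosome 1, at 133033962 to 133034399, were much stronger in one replicate. The optimal signal was 39.9, with 7.58 in replicate 1 (rank 25161) and 35.3 in replicate 2 (rank 1318). This locus lies 3375 bp from the 5′ end of Mdm4, a regulator of p53, and inside the noncoding gene Gm41953.

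The asparagine gene n-TNgtt14 and the arginine gene n-TRtcg5 completed the 10 strongest. The signal of n-TNgtt14 on chromosome 5, inside the noncoding gene 2310047D07Rik, was 29.8 in the optimal list, 11.5 in replicate 1 and 13 in replicate 2. The signal of n-TRtcg5 on chromosome 7 was 28.4 in the optimal list, 15.2 in replicate 1 and 17.8 in replicate 2. This gene lies within the outer ends of Polg in RefSeq, 1420 bp from its 5′ end, but outside Polg in the GENCODE M1 annotation of mm9. It also lies in a promoter window of Polg in RefSeq, although its distance to the outer 5′ end counts it as far. With the starts of RefSeq transcripts counted too, 7 of 35 near and 10 of 252 far loci had an optimal summit. Polg encodes the catalytic subunit of mitochondrial DNA polymerase. The other 7 optimal loci had optimal signals of 28.3 or lower.

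Other annotated genes lay beside most of the occupied loci. Of the 17 occupied loci 13 lay within 1 kb of or inside another RefSeq gene, coding or not (76.5%, interval 50.1 to 93.2%), against 153 of all 287 tRNA loci (53.3%), and 5 of the 13 lay inside a long noncoding RNA gene. The summit was within 500 bp of an end of such a gene at 9 loci, of which 5 were near a protein-coding 5′ end and 4 were not. That is 52.9% (interval 27.8 to 77%), and the interval includes the 36% of all optimal peaks with such an end within 500 bp of the summit. At those 9 loci binding at the tRNA gene and at its neighbour cannot be told apart. The 134 loci over 1 kb from any other RefSeq gene had 4 optimal summits (2.99%, interval 0.819 to 7.47%) and 23 pooled ones (17.2%, interval 11.2 to 24.6%). The 44 loci over 10 kb from any other gene had 1 optimal summit (2.27%) and 2 pooled ones (4.55%, interval 0.555 to 15.5%). The 121 far loci within 1 kb of or inside another gene had 7 optimal summits (5.79%, interval 2.36 to 11.6%) and 14 pooled ones (11.6%, interval 6.47 to 18.7%). Beside the 134 loci without such a neighbour, their share was thus higher in the optimal list and lower in the pooled list, with overlapping intervals in both.

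The 5 loci named next carried the highest pooled signals without an optimal summit. The strongest was the cluster n-TLtaa4, n-TRtct1, n-TVtac1 and n-TVtac2 on chromosome 19 at 12011086 to 12012338, a run of leucine, arginine and valine genes 24402 bp from the nearest protein-coding 5′ end. Its signal was 23.7 in the pooled list, 10.1 in replicate 1 and 15.8 in replicate 2. The leucine gene n-TLtag2 on chromosome 14 had 22.1 in the pooled list, 10.4 in replicate 1 and 10 in replicate 2. The arginine gene n-TRacg6, 226 bp from the 5′ end of the arginine methyltransferase gene Prmt5, had 22.1 in the pooled list, 8.01 in replicate 1 and 12.4 in replicate 2. The cluster n-TVcac2, n-TAagc7 and n-TVaac5 on chromosome 13 had 21.6 in the pooled list, 14.5 in replicate 1 and 12.5 in replicate 2. The alanine gene n-TAagc8 on chromosome 4 had 20.5 in the pooled list, 18.5 in replicate 1 and only 4.23 in replicate 2. The loci of n-TLtaa4, n-TLtag2 and n-TVcac2 were thus among the 20000 strongest peaks of both replicates, and the other two of 1 replicate.

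Occupied loci did not all recur between replicates. The largest rank difference was at n-TAagc12 and n-TVaac2 on chromosome 13, whose optimal signal of 8.00 was the lowest of the 17 loci. Its peak had rank 262391 in replicate 1 and 22170 in replicate 2, and it was not among the 20000 strongest pooled peaks. The proline gene n-TPtgg5 on chromosome 14 had rank 64487 in replicate 1 and 22314 in replicate 2, with a summit 75 bp from an end of the ribonuclease gene Rnase4. The locus of n-TKctt26 and n-TKctt25 was the third. Of the 17 loci 12 also lay in the list of replicate 1 and 15 in that of replicate 2. The conservative list, made from the same inputs, held 18 tRNA loci, of which 12 were optimal loci, and all 18 were in the lists of both replicates.

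The position of the summit relative to the tRNA gene was variable. Across the 17 optimal loci it was upstream of the nearest tRNA gene at 7, inside it at 1 and downstream at 7, and the strand was unknown at 2. The median distance to the gene was 206 bp, and at 15 of 17 loci the summit was over 100 bp from it. Across the 53 pooled loci it was upstream at 22, inside at 2 and downstream at 23. The median distance was 197 bp, and 39 summits were over 100 bp away. The window of 500 bp limits the distances in both lists, and no reference spread was set beside them. For the far loci of the replicates, the summit was upstream at 5 and downstream at 20 of 28 in replicate 1, and upstream at 15 and downstream at 35 of 55 in replicate 2. Among the far loci of the pooled list it was upstream at 12 and downstream at 19, and among those of the optimal list upstream at 4 and downstream at 4. The near loci leaned the other way or not at all. The summit was upstream at 7 and downstream at 3 of 13 in replicate 1, upstream at 9 and downstream at 6 of 16 in replicate 2, and upstream at 10 and downstream at 4 of 16 in the pooled list. In the optimal list it was upstream at 3 and downstream at 3 of the 6 near loci. These differences were not tested.

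**Figure D3:**
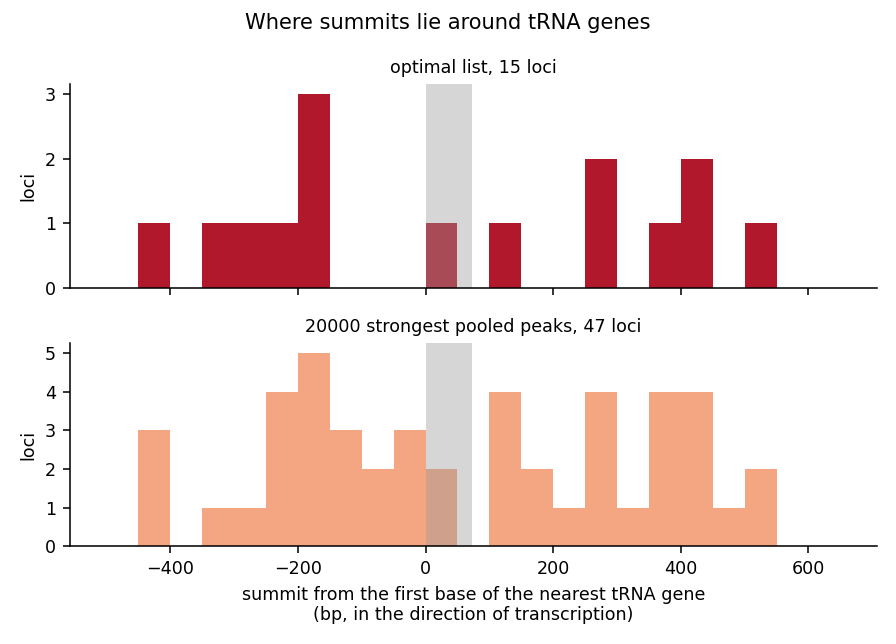
Distance in bp from the first base of the nearest tRNA gene to the CHD2 summit, in the direction of transcription, for the optimal list (top) and the 20000 strongest pooled peaks (bottom); bars count loci of known strand in steps of 50 bp. The grey band is a gene of the median length of 73 bp. Summits lie on both sides of the gene, and 1 of the optimal and 2 of the pooled summits lie inside it.

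The window of 500 bp decided some loci, measured here from the edge of the locus to its nearest summit of the list, whatever its signal. Just inside it were n-TPtgg5 at 434 bp and n-TQttg6 at 364 bp from an optimal summit. For n-TAagc9, whose strongest summit was 421 bp away, the nearest was 211 bp away. Just outside were n-TEttc4 at 555 bp and the locus of n-TVaac4 and n-TAagc10 at 557 bp. In the pooled list n-TVcac10 was 468 bp and n-TPtgg5 434 bp from a summit, whereas n-TTagt3 at 514 bp and n-TLcaa1 at 532 bp were left out. Peaks are about 360 bp wide at the median, and at 5 loci (1.74%), none of them near a protein-coding 5′ end, an optimal peak itself overlapped the locus.

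The isotypes differed in the number of occupied loci, but with wide intervals. Proline had 8 of 13 loci in the pooled list (61.5%, interval 31.6 to 86.1%), tryptophan 4 of 8 (50%), arginine 9 of 21 (42.9%) and phenylalanine 3 of 7 (42.9%). In the lists of both replicates proline had 2 loci, tryptophan 2, arginine 6 and phenylalanine 2. Glutamine had 5 of 14 (35.7%), valine 7 of 20 (35.0%) and leucine 8 of 24 (33.3%). At the other end glutamate had 1 of 20 (5%), histidine 1 of 10 (10%) and threonine 2 of 18 (11.1%). In the optimal list alanine had 3 loci, while arginine, asparagine, aspartate, glycine and phenylalanine had 2 each. Cysteine, glutamate, leucine, serine, threonine and tryptophan had none there. A locus with several isotypes counted under each, also where its summit lay nearest a gene of another isotype.

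**Figure D4:**
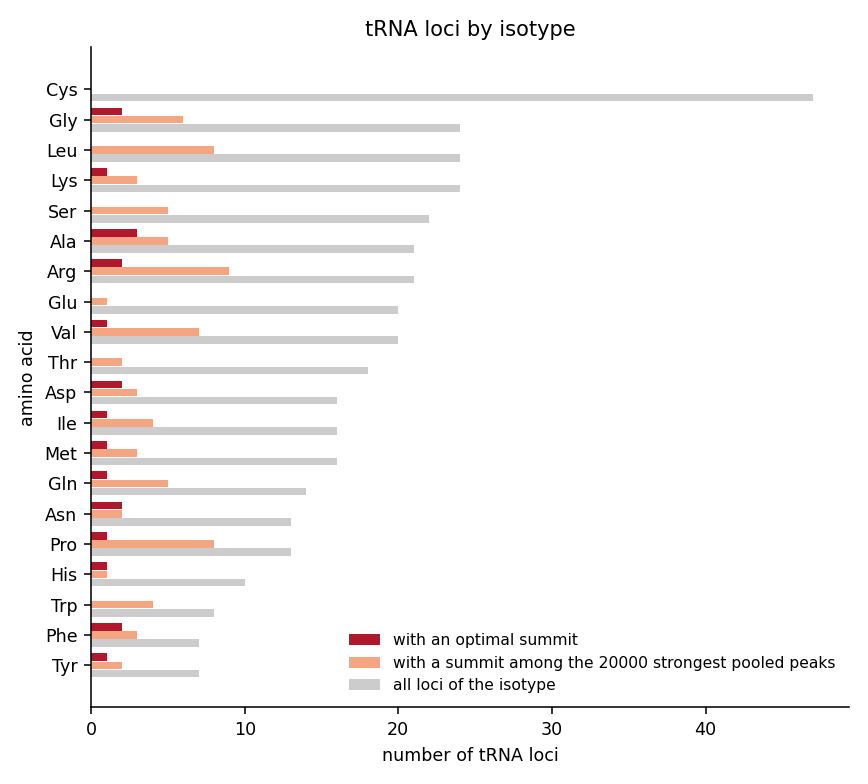
Number of tRNA loci (horizontal axis) by amino acid (vertical axis). Red bars are loci with an optimal summit, orange bars those with a summit among the 20000 strongest pooled peaks and grey bars all loci of the isotype. Cysteine has 47 loci with no summit in either list, and proline 8 of 13 loci in the pooled list.

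Cysteine stood at 0. None of its 47 loci had a pooled summit, which leaves a share of at most 7.55% within the exact interval. The single cysteine locus in any of the 4 lists was n-TCgca56, in replicate 2. Of these loci 40, with 49 genes, lie on chromosome 6 between 47978997 and 48363603, and none of the 40 had a summit in any of the 4 lists. In the full pooled list 3 of the 40 had a peak within 500 bp (7.5%, interval 1.57 to 20.4%), the strongest at rank 117072, against 143 of the other 247 tRNA loci (57.9%) and 12.3% of regular positions. The interval includes the share of regular positions. Without them 53 of 247 loci were pooled loci (21.5%).

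The sequence of these genes is repeated, as n-TCgca37 printed above shows: it was shared by 29 of the placed genes. Around the chromosome 6 cysteine loci the median was 0.3 CpG per 100 bp, counted over the gene and 500 bp on each side. Across all placed genes 63.0% had an identical copy elsewhere, and the share was 63.2% among genes of optimal loci and 63.0% among the chromosome 6 cysteine genes. How reads that fit several places were handled is not given in the sources used here. A locus without a peak is therefore not shown to be free of CHD2.

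The same absence was found at 3 of the loci with 5 genes, the largest number in a locus. Each holds 5 genes, for glutamate, glycine, aspartate, leucine and glycine again, on chromosome 1 between 171064164 and 171081946, and n-TGtcc5 printed above is one of them. None had a summit in any list, the full lists of 300000 peaks included, although their surroundings held 10.9 to 11.0 CpG per 100 bp. Their genes are copies of each other, and n-TGtcc5 was identical to 6 other placed genes. Another locus of 5 genes, that of n-TGgcc6, n-TMcat6, n-TStga1, n-TQttg4 and n-TQttg5 on chromosome 13, did have summits. They were in the pooled list and in the lists of both replicates, but not in the optimal list.

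Loci with several genes were more often occupied in the pooled list. There, 14.1% of loci with 1 gene, 26.7% of those with 2 and 45.5% of those with 3 or more were occupied. Among far loci it was 30.6% for 2 or more genes (interval 19.6 to 43.7%) and 9.33% for 1 gene (interval 5.62 to 14.3%). Loci with more genes also cover more bases, and the part of that in these shares was not tested. In the optimal list the shares were 5.45% with 1 gene, 11.1% with 2 and 0% with 3 or more.

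Chromosome 13 carries the largest collection of tRNA loci. It had 76 loci, of which 75 lie between 21160785 and 23530419, in the same stretch as n-TRtcg1. Of the 76, 4 were optimal loci and 16 were pooled loci (21.1%, interval 12.5 to 31.9%). The replicates differed here, with 25 loci in replicate 2 (32.9%, interval 22.5 to 44.6%) and 8 in replicate 1 (10.5%, interval 4.66 to 19.7%). Over the 211 loci of all other chromosomes, 46 were occupied in replicate 2 (21.8%, interval 16.4 to 28%) and 33 in replicate 1 (15.6%, interval 11 to 21.3%), so that the gap between the replicates was smaller there.

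The A box core was found less often and the T run more often among genes of optimal loci than among all placed genes, and the order for the B box core depended on the chromosome 6 cysteine genes. These shares also depend on the isotypes in each set, and their differences were not tested. Sequence was read for 354 of the 391 genes (90.5%). Among all of these the A box core was found in 50%, the B box core in 63.3% and a run of TTTT within 60 bp downstream in 91.2%. Among the 19 genes of optimal loci the shares were 21.1% for the A box core, 68.4% for the B box core and 100% for the T run. Without the chromosome 6 cysteine genes the shares over the other 308 placed genes were 43.2%, 72.4% and 92.2%, so that the B box core was then less frequent at optimal loci. In the 32851 promoter windows of RefSeq genes, read on both strands, the B box core was found in 0.843%, the A box core in 30% and both in 0.259%. A match is no proof of a working element.

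Many genes without a match held another spelling of the B box core. With GTTCAANNC counted as well, a spelling added after the sequences were seen, 95.2% of all placed genes and 78.9% of those at optimal loci held a B box core. Of the chromosome 6 cysteine genes 46 of 46 then held it, against 1 of 46 with the first spelling alone. Of the optimal loci printed above, n-TMcat11 and n-TAagc9 held neither spelling.

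CpG content moved with occupancy over all loci and over the far loci, but not over the near loci. The median was 4.4 CpG per 100 bp at the 15 optimal loci with sequence, 4.1 at the 34 pooled loci without an optimal summit, 2.85 at the 170 remaining loci other than the chromosome 6 cysteine loci, and 0.3 at 38 of those. By class, pooled summits were found at 28 of 79 loci with at least 4 CpG per 100 bp (35.4%, interval 25 to 47%) and at 19 of 99 loci with 2 to 4 (19.2%, interval 12 to 28.3%). They were found at 1 of 34 loci with 1 to 2 and at none of 45 loci with under 1. Among the far loci alone it was 18 of 57 in the highest class (31.6%, interval 19.9 to 45.2%) and 14 of 90 in the next (15.6%, interval 8.77 to 24.7%). Among the near loci it was 10 of 22 in the highest class (45.5%, interval 24.4 to 67.8%) and 5 of 9 in the next (55.6%, interval 21.2 to 86.3%). The median of the near loci was 4.1 CpG per 100 bp with a pooled summit and 5.1 without one. The genome positions used for comparison were not matched for CpG content, and its part in the shares was not tested. The value of a locus was that of its gene with the highest count.

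**Figure D5:**
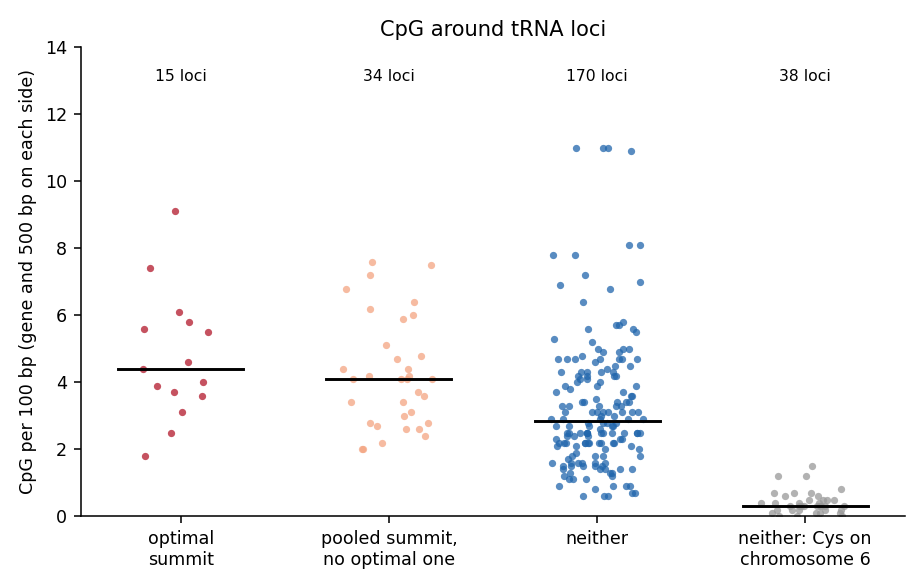
CpG per 100 bp over the tRNA gene and 500 bp on each side (vertical axis) for tRNA loci with an optimal summit, with a pooled summit but no optimal one, with neither, and the cysteine loci of chromosome 6. Each point is a locus and the black lines are medians, at 4.4, 4.1, 2.85 and 0.3. Points of the first 3 groups overlap over most of their range, and 4 loci with neither summit lie near 11.

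Other short RNA genes, joined and scored in the same way, had lower shares than tRNA loci over all loci and over the far loci, while the near loci had overlapping intervals. No test of these differences was run. In the pooled list it was 18.5% of tRNA loci, against 2.55% of 902 snRNA loci, 2.39% of 1174 snoRNA loci and 5.13% of 936 miRNA loci. Over 1 kb from protein-coding 5′ ends it was 14.5% of tRNA loci (interval 10.4 to 19.4%), against 2.26% of snRNA, 1.40% of snoRNA and 2.21% of miRNA loci. The upper ends of the intervals of those 3 classes were 3.46%, 2.27% and 3.42%. In the optimal list it was 5.92% of tRNA loci, against 1.33%, 0.767% and 2.24% for snRNA, snoRNA and miRNA loci. Within 1 kb of protein-coding 5′ ends the optimal shares were 18.8% of tRNA, 18.8% of snRNA, 11.8% of snoRNA and 18.7% of miRNA loci. The pooled shares there were 50% of tRNA loci (interval 31.9 to 68.1%), against 18.8% of snRNA (interval 4.05 to 45.6%), 35.3% of snoRNA (interval 19.7 to 53.5%) and 38.7% of miRNA loci (interval 27.6 to 50.6%). These classes include annotated copies and were not matched to tRNA loci for CpG content.

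Some genes of the machinery that makes tRNA also had CHD2 summits. Of 45 protein-coding genes for RNA polymerase III, its factors, its repressor and tRNA maturation, 14 had an optimal summit within 500 bp of the 5′ end (31.1%, interval 18.2 to 46.6%), against 13.1% of all protein-coding 5′ ends. The 5 with the highest signals were Maf1, a repressor of RNA polymerase III, at 297, Polr1c, a subunit shared by polymerases I and III, at 210, and Brf1, a part of TFIIIB, at 113. Trmt6, a tRNA methyltransferase subunit, followed at 45 and Polr1d, another shared subunit, at 40.3. The summits lay at 76351223 on chromosome 15 for Maf1, at 46248030 on chromosome 17 for Polr1c and at 113000491 on chromosome 12 for Brf1. The other 9 had signals of 35.1 or lower. Among the RNA polymerase III subunit genes Crcp and Polr3a to Polr3k, Polr3b alone had an optimal summit there, with a signal of 30.5. Tbp had 25, whereas Brf2 and Bdp1 had no optimal summit there. The largest TFIIIC subunit gene, Gtf3c1, had no optimal summit there, whereas Gtf3c2 had 18 and Gtf3c5 had 16.9.

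The separate list on mm9, made from the mm9 alignments of both replicates, gave a similar set of top loci. It holds 4613 peaks. The placed genes formed 255 loci there, of which 7 had a summit within 500 bp (2.75%, interval 1.11 to 5.57%), against 0.203% of regular positions on mm9. All 7 were also optimal loci, of the 15 optimal loci that could be placed. They were n-TRtcg1 with a signal of 277, n-TMcat11 with 171, n-TAagc9 with 113, n-THgtg6 with 77.6, n-TQttg6 with 67.5, n-TRtcg5 with 41.0 and n-TNgtt14 with 32.8. The first 5 stand in the same order among themselves as in the optimal list. As the mm9 list comes from the same 2 replicates, it is no independent measurement.

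With all 300000 peaks of each relaxed list, in which most peaks are weak, 146 loci had a pooled summit (50.9%, against 12.3% of regular positions). In replicate 1 it was 119 loci (41.5%, against 12.4%) and in replicate 2 it was 159 loci (55.4%, against 12.1%). The excess of replicate 2 over replicate 1 at tRNA loci was therefore present in the full lists too.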

How the data were processed

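CHD2 ChIP-seq peak lists of 2 biological replicates were analysed, and the authors' deposited signal value per peak (column 7) and summit offset were used as deposited. Per the file headers, the optimal and conservative lists were built on the pooled relaxed list, both replicates' relaxed lists and 1 undescribed input, and each relaxed list on mm10 alignments and 2 undescribed inputs. The caller, its filters, the aligner and the depth were not given in the sources used here; members and lists were chosen with earlier results of these data known. tRNA genes came from RefSeq GRCm38.p6. The 5′ ends of 20318 of 20665 protein-coding genes on numbered chromosomes were used, with the strand from RefSeq promoters or GENCODE M1. Regular positions were 73 bp features every 1 kb. Shares of them and of 19860 protein-coding 5′ ends cover the numbered chromosomes with tRNA loci.

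Sequence was read from mm9. A gene was placed where a cloverleaf-like sequence of the same anticodon and length stood at the same distance from a neighbouring tRNA gene or promoter within 1 Mb as on GRCm38. This gave a position for 354 genes. The 4 that could be checked, all inside RefSeq promoter windows, had the RefSeq sequence. Such windows also served to place genes, so this check was not independent and does not cover genes outside them. Trnat-ugu, Trnap-ugg, Trnav-aac and Trnal-aag were placed on the same mm9 bases as n-TTtgt2, n-TPtgg4, n-TVaac7 and n-TLaag6. They had no promoter at the same distance, so those placements cannot all be right. Counts over placed genes include both sets. The 37 others are named without sequence.

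The 10 loci with the highest optimal signal were named, with the 5 highest far from protein-coding 5′ ends and the 5 highest pooled ones without an optimal summit. Also named were 3 of the loci with 5 genes and the 3 loci with the largest rank difference. At the window edge 2 loci on each side were named in the optimal list and again in the pooled list. The locus of n-TGgcc6, another with 5 genes, was named after its values were seen. Pathway genes were the 5 with the highest signal. The Polr3 genes, Crcp, Tbp, Brf2, Bdp1, Gtf3c1, Gtf3c2, Gtf3c5, n-TCgca56 and n-TCgca37 were named after their values were seen. The CpG classes and the second B box spelling were also chosen after values were seen. No test across samples was possible with 1 group. Placement and counting were checked on simulated data. The simulated sequence held no repeated gene copies and no shifts in distance between builds, so it does not test the placement of repeated genes. Python 3.11.15, pandas 2.3.3, numpy 2.4.6 and scipy 1.17.1 were used. Windows, joining distances, list lengths and list choices were varied.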

Additional observations from a re-analysis of the deposited data

How the results depend on the processing

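Only 1 group was measured, so every alternative gives a share without a test, and a share counted as moved when it left the 95% interval of the reported one. Of 48 alternatives, 30 stayed within it and 18 moved. For optimal summits the share of all loci (5.92%) moved to 1.74% when the peak itself had to overlap the locus, to 10.4% with genes joined at less than 10 kb, to 3.14% with the 50% of optimal peaks with the higher signal and to 2.75% in the mm9 list. Leaving out 1 replicate here meant taking the strongest peaks of the other replicate's list, as many as the optimal list holds. The share was 6.27% without replicate 2 and moved to 11.5% without replicate 1. The share of near loci (18.8%) moved to 0% with overlap, and ranged from 18.8% to 25% without 1 replicate. The share of far loci (4.31%) moved to 1.96% with overlap, to 7.69% with joining at 10 kb and to 9.8% without replicate 1. It was 4.71% without replicate 2. The pooled share (18.5%) moved to 13.9% with a window of 250 bp, 24.7% with 1 kb, 8.71% with the 10000 strongest peaks and 29.6% with 40000. The share in both replicates (10.1%) moved to 5.57% with 250 bp, 14.6% with 1 kb and 5.23% with 10000 peaks. It moved to 14.3% when replicate 1 alone had to hold a summit and to 24.7% when replicate 2 alone had to. In each case the cause was not tested beyond the construction of the alternative. Alternatives chosen after seeing the data, which added RefSeq transcript starts, left out loci near any RefSeq gene or left out the chromosome 6 cysteine loci, stayed within the intervals. No paired analysis was possible because there is only 1 group.

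The read depth is unknown, so no limit from depth can be given for a locus without a peak. With 32 near loci, shares there have wide intervals. The lists are made from the same reads and are not independent of each other.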

Other observations

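On chromosome X, outside the loci counted above, 17 tRNA genes formed 17 loci. None of them had a summit within 500 bp in the optimal list, among the 20000 strongest pooled peaks or in either replicate's 20000 strongest peaks. By the GENCODE M1 annotation of mm9, the 20 placed tRNA genes that lie inside an intron of a protein-coding gene included 1 gene of a pooled locus (5%, interval 0.127 to 24.9%), whereas the 331 genes that lie between protein-coding genes included 79 (23.9%, interval 19.4 to 28.8%). Of those 331 genes, 6, among them n-TRtcg5, lie within the outer ends of a protein-coding gene in RefSeq on GRCm38. Genes of 1 locus share its summit, so these counts are not of independent events.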
